A study of Drosophila melanogaster with 6 samples.

Results

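The genes described here encode enzymes that remove superoxide and peroxides or that keep thiols reduced: the superoxide dismutases Sod1, Sod2 and Sod3, the catalase Cat, the peroxiredoxins Prx3, Prx6a and Prx6c, the thioredoxin reductase Trxr1, the DJ-1 homologue dj-1beta, and Gclm, the modifier subunit of the enzyme that starts glutathione synthesis. They were chosen by name, with earlier results of these data known. A probe set was used only where the platform annotation gave it exactly 1 gene. Of the 10 genes listed, 9 had such a probe set, 10 probe sets in all, out of 11983 genes and 13647 probe sets named in this way. Sod1 was not analysed here. A further probe set that the annotation shares between Prx6c and other genes was left out by the same rule.

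Superoxide dismutases turn superoxide, a by-product of respiration, into hydrogen peroxide. Catalase and the peroxiredoxins then break down hydrogen peroxide, and many spent peroxiredoxins are reduced again through thioredoxin and thioredoxin reductase. Drosophila lacks a glutathione reductase, so its thioredoxin system also keeps glutathione reduced. Transcription of many of these enzymes is known to respond to CncC, the fly counterpart of Nrf2, with its partner maf-S, and to Foxo.

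Both groups were wing imaginal discs, the larval epithelial sacs that form the adult wing, dissected at 96 h AED from larvae in the third instar. The wild type discs came from strain w1118 and the mutant discs from strain kdm510424, which is mutant for kdm5 (lid), a demethylase of histone H3 lysine 4. Each of 3 biological replicates per genotype held RNA from about 60 discs, labelled from 100 ng and hybridised to 1 Drosophila Genome 2.0 array. The study asked which transcripts change when KDM5 is lost, and its known interest lies in genes that protect against oxidative stress. No control of the mutant's own background is among the samples, so strain and mutation cannot be told apart. The mutation is carried by the whole animal, and whether the larvae were homozygous is not given in the labels. A disc sample is a mixture of cells, in which fewer cells of a type and less RNA per cell cannot be told apart. The labels do not say that replicates came from separate crosses, so the p-values cover only the spread among these samples, and the number of arrays limits their precision.

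The arrays were alike in scale and separated by genotype. Their medians lay between 4.42 and 4.45 on the log2 scale. Kdm5 averaged 10.08 ± 0.08 on wild type and 4.29 ± 0.51 on mutant arrays (SD, n = 3 each), which follows the labels. Of the 6 wing disc markers measured, vg, nub, ap, en and dpp had means from 9.86 to 12.00 in both genotypes and ptc was dimmer, at 5.68 in wild type and 5.03 in the mutant. From this list ptc and vg were called lower (-0.65 and -0.18, adjusted p = 0.000362 and 0.0347, limma), vg not under the spike-in centrings, with its probe sets averaged, with a replicate term or with any 1 array left out. Among genes listed as markers of tissues outside the disc epithelium, 7 of 10 salivary gland genes, 6 of 9 fat body genes and 7 of 11 haemocyte genes fell. From the haemocyte list 1 gene rose. Over all probe sets tested 9.84% were called lower and 8.49% higher, and 17.5% were lower among those of mean above the median level. Of 8 gut and Malpighian tubule genes 2 fell, among them LManII by 2.58 on the log2 scale, 1 rose and 5 did not pass, with a median change of -0.04. The mean log2 level of the salivary gland list ran from 6.88 to 7.71 on the wild type arrays and from 5.39 to 5.54 on the mutant arrays, that of the fat body list from 7.07 to 7.87 and from 5.88 to 6.04, and that of the haemocyte list from 6.51 to 6.84 and from 5.89 to 6.22. Whether the disc itself expresses any of these genes was not tested, nor was the part of cells from other tissues in the changes below. The groups were matched by age, and their stage within the third instar was not tested.

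The measured enzymes changed by modest amounts, more of them downwards than upwards on the deposited scale. Of the 10 probe sets, 6 fell, 2 rose and 2 did not pass the test. Passing means an adjusted p under 0.05 (limma over all probe sets, Benjamini-Hochberg). With the arrays centred on hybridization spike-in controls, 3 of the 10 were lower and 3 higher. That centring called 923 of all 18769 probe sets lower and 6302 higher. As deposited, 18.3% of the 18769 probe sets tested passed, with 9.84% lower and 8.49% higher. Among the 9385 whose mean level lay above the median of all probe sets, 31.9% passed and 17.5% passed as lower. This above-median background is the closer one, since 9 of the 10 probe sets lay above that level in both genotypes. The median log2 change of the 10 was -0.31, against 0.01 over all probe sets, and the median size of a change, whatever its sign, was 0.35 against 0.10. None reached a 2-fold change, a size that 2.56% of all probe sets reached with a passing p. Arrays of the genotypes did not overlap for 9 of the 10, against 36.1% of all probe sets. For size of change and for overlap the background was all probe sets, dim ones included, and not the closer one. Since the genes were chosen with earlier results known, the shares and medians here are a description and no test of the group. The count of rises rested on single arrays: it was 1 on leaving out wild type replicate 3, mutant replicate 1 or replicate 3 of the mutant, and 0 without mutant replicate 2.

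**Figure D1:**
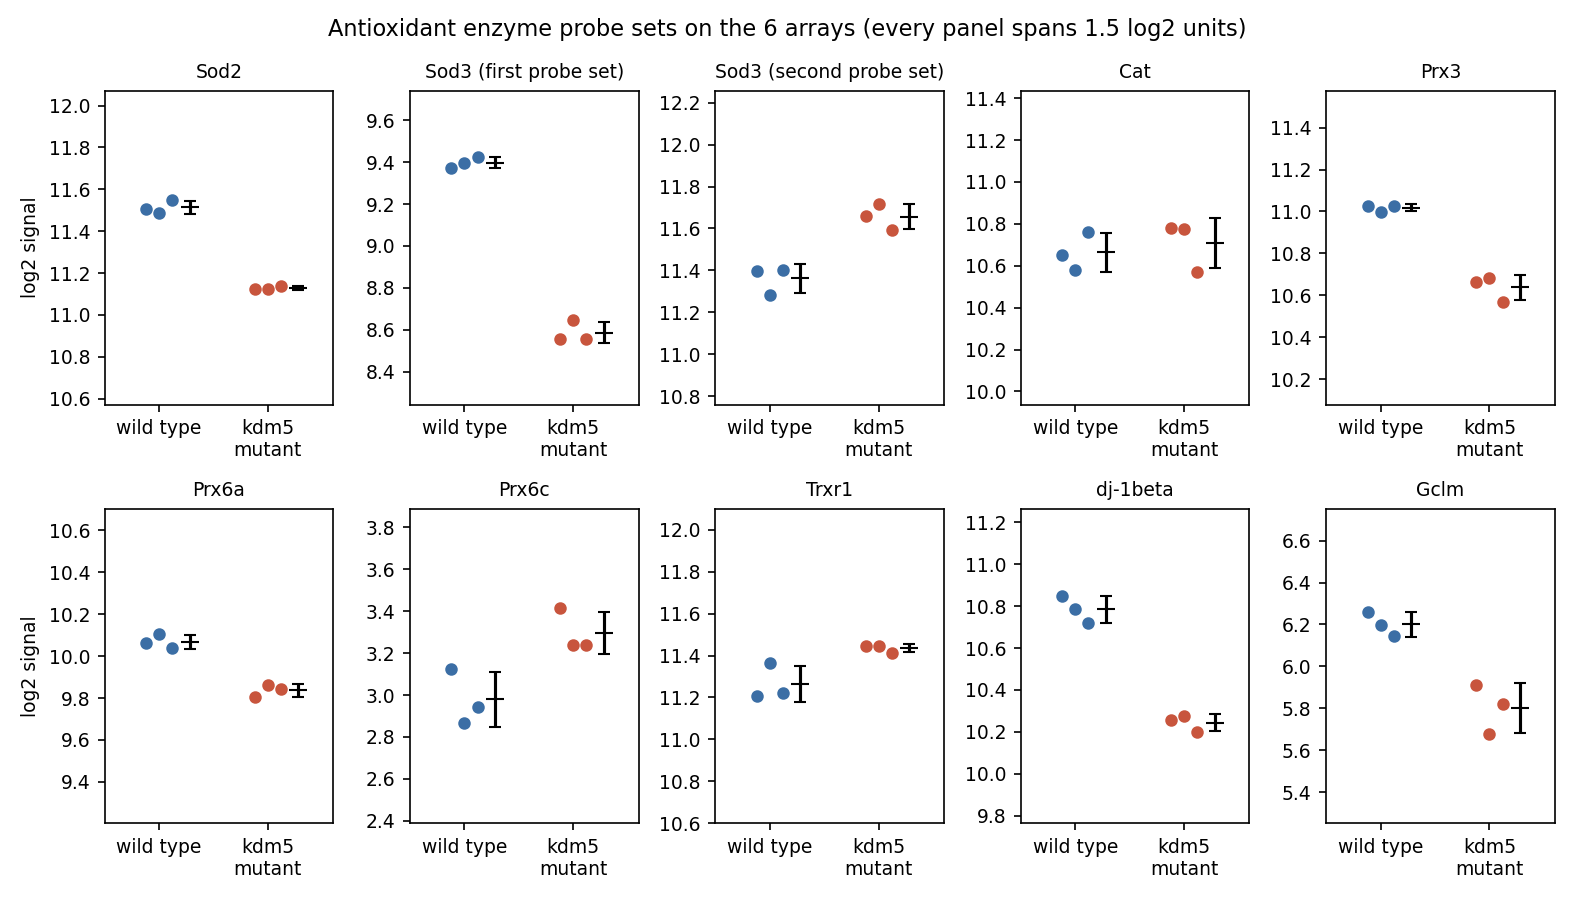
Log2 signal (vertical axes) of the 10 probe sets on each wild type (blue) and kdm5 mutant (red) array; black marks show the mean and SD of 3 arrays, and every panel spans the same height in log2 units. Points of the genotypes overlap only for Cat, and the widest gap is that of the first Sod3 probe set, 0.73 log2 units.

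Sod2, the manganese superoxide dismutase of the mitochondrion, fell in the mutant. Its log2 signal was 11.51, 11.49 and 11.55 on the wild type arrays and 11.12, 11.13 and 11.14 on the mutant arrays. Every mutant array lay at least 0.35 below every wild type array, with hardly any spread within the mutant (SD 0.01, n = 3). The log2 change was -0.38 ± 0.05 (SE, adjusted p = 0.00128, limma), which leaves 76.6% of the wild type signal.

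Sod3, the extracellular copper and zinc superoxide dismutase, was measured by 2 probe sets that moved in opposite directions. The first, 1622906_at, read 9.37, 9.40 and 9.42 in wild type and 8.56, 8.64 and 8.56 in the mutant. This was the largest change of the 10 and ranked 230 of the 18769 probe sets by p: -0.81 ± 0.05 (SE), 1.76-fold lower (adjusted p = 5.43e-05, limma). The second, 1636961_a_at, read 11.40, 11.28 and 11.40 in wild type and 11.66, 11.72 and 11.60 in the mutant, and its groups did not overlap either. It rose by 0.29 ± 0.06 (SE, adjusted p = 0.0129, limma), or 1.23-fold.

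The unequal change of the Sod3 probe sets was also seen within each array, as a difference that a constant added to an array cannot alter. The first minus the second was -2.03, -1.89 and -1.98 in wild type and -3.10, -3.07 and -3.04 in the mutant, so the distance between them grew by 1.11 log2 units. An exact two-sided permutation test gave p = 0.1, the smallest that 3 arrays against 3 allow (adjusted p = 0.1 over the 2 such pairs tested). Among 1094 named genes with several probe sets, 28, or 2.56%, had probe sets that passed in both directions. Which transcripts either probe set detects is not stated in the files or labels, so no direction can be given for Sod3 as a gene: the mean of its probe sets changed by -0.26 (adjusted p = 0.0122, limma). The rise of the second probe set missed the threshold without mutant replicate 2 (0.27, adjusted p = 0.0556, limma).

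Among the peroxide enzymes, both peroxiredoxins with a clear signal fell and catalase showed no detectable change. Prx3, the mitochondrial peroxiredoxin, read 11.03, 11.00 and 11.03 in wild type and 10.66, 10.68 and 10.57 in the mutant. Its change of -0.38 ± 0.05 (SE, adjusted p = 0.00228, limma) leaves 76.9% of the wild type signal, a share near that of Sod2. Prx6a, a peroxiredoxin that works with a single catalytic cysteine, read 10.06, 10.10 and 10.04 in wild type and 9.80, 9.86 and 9.84 in the mutant. The arrays stayed 0.17 apart between genotypes, for a fall of 0.23 on the log2 scale (SE 0.05, adjusted p = 0.0152, limma). This call was lost without mutant replicate 1 (-0.22, adjusted p = 0.0625, limma).

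Prx6c, a close relative of Prx6a, gave a signal of 3.13, 2.87 and 2.94 in wild type and 3.41, 3.24 and 3.24 in the mutant. Each of the 6 values was under 4.44, the median over all arrays and probe sets, so the 1.25-fold rise (log2 change 0.32 ± 0.08, SE, adjusted p = 0.0393, limma) sits in the range where the background of the array can set its size. No detection call was at hand to say whether the transcript was present. Its adjusted p lay between 0.0719 and 0.117 (limma) on leaving out wild type replicate 2 or 3 or any 1 of the mutant replicates, so the rise was called without only 1 of the 6 arrays, wild type replicate 1.

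Cat, which splits hydrogen peroxide into water and oxygen, read 10.65, 10.58 and 10.76 in wild type and 10.78, 10.78 and 10.57 in the mutant. The lowest of the 6 values and the highest were both from mutant arrays. The difference of 0.04 ± 0.08 (SE, adjusted p = 0.781, limma) had a 95% interval from -0.14 to 0.23, which holds neither the fall of Sod2 nor that of Prx3.

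Trxr1, thioredoxin reductase, had a bright signal and an upward change that missed the threshold of the test. It read 11.21, 11.37 and 11.22 in wild type and 11.45, 11.44 and 11.41 in the mutant, with a gap of only 0.05 between the genotypes. The log2 change of 0.17 ± 0.06 (SE) did not pass (adjusted p = 0.0944, limma), with a 95% interval from 0.03 to 0.31. It did pass without wild type replicate 2, the highest wild type array (0.22, adjusted p = 0.04, limma). Leaving out any other 1 array did not bring it past the threshold (adjusted p from 0.152 to 0.237, limma).

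The DJ-1 homologue dj-1beta, a small redox-sensing protein whose human counterpart is linked to Parkinson's disease, had the largest fall among the genes measured by 1 probe set. Its signal was 10.85, 10.79 and 10.72 in wild type and 10.26, 10.27 and 10.20 in the mutant. The genotypes were 0.44 apart at their nearest arrays. The change of -0.54 ± 0.05 (SE, adjusted p = 0.000571, limma) corresponds to 68.8% of the wild type signal.

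Gclm, which raises the activity of the catalytic subunit Gclc in glutathione synthesis, read 6.26, 6.20 and 6.15 in wild type and 5.91, 5.68 and 5.82 in the mutant. It fell 1.32-fold (log2 change -0.40 ± 0.07, SE, adjusted p = 0.00832, limma). Gclc itself did not pass, with 7.96 ± 0.04 on wild type and 8.05 ± 0.07 on mutant arrays (SD, n = 3 each, adjusted p = 0.347, limma). The signal of Gclm relative to Gclc within an array changed by -0.49, from -1.76 ± 0.03 to -2.25 ± 0.05 (SD, n = 3 each). This pair was picked after the values were seen. The exact two-sided permutation test of it gave p = 0.1, the smallest it can give.

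**Figure D2:**
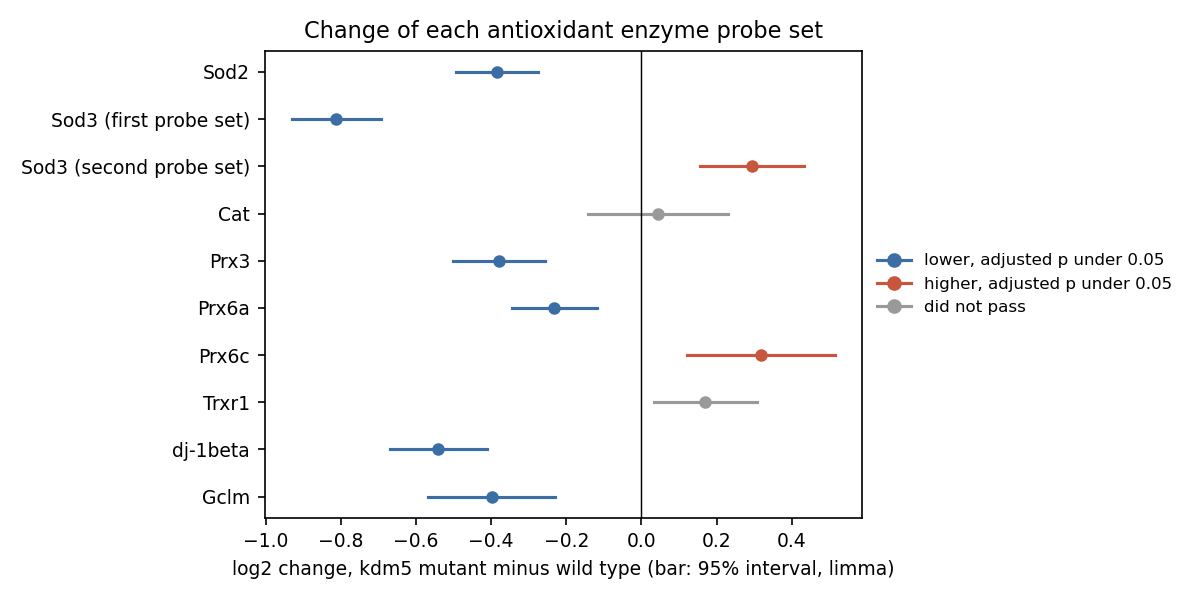
Log2 change (mutant minus wild type, horizontal axis) of each probe set with its 95% interval from limma; blue fell, red rose and grey did not pass. Both Sod3 probe sets passed, on opposite sides of 0, from -0.81 to 0.29, and only the interval of Cat covers 0.

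How the arrays are scaled bears on the size of these changes, though not on their sign. Centring each array on its hybridization spike-in controls gave all probe sets a median change of 0.19 in place of 0.01, and the polyadenylated spike-ins one of 0.08. None of the 10 changed direction under either centring, under quantile normalization or with each array centred on its median. The split of all calls moved with the scaling: lower calls made up 53.7% as deposited, 38.7% with the polyadenylated and 12.8% with the hybridization spike-ins. With the hybridization spike-ins Sod2, the first Sod3 probe set and dj-1beta were still called lower, at -0.20, -0.63 and -0.36. Their adjusted p values were 0.0481, 0.000153 and 0.011 (limma), so Sod2 passed only narrowly. Prx3, Prx6a and Gclm read -0.20, -0.052 and -0.22 there and were not called (adjusted p = 0.0712, 0.595 and 0.0774, limma), and Trxr1 was called higher, at 0.35 (adjusted p = 0.0107, limma). Prx6a also lost its call with the polyadenylated spike-ins (-0.17, adjusted p = 0.196, limma). A centring adds the same amount to the change of every probe set, so the distance of a change from that median is fixed under it.

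**Figure D3:**
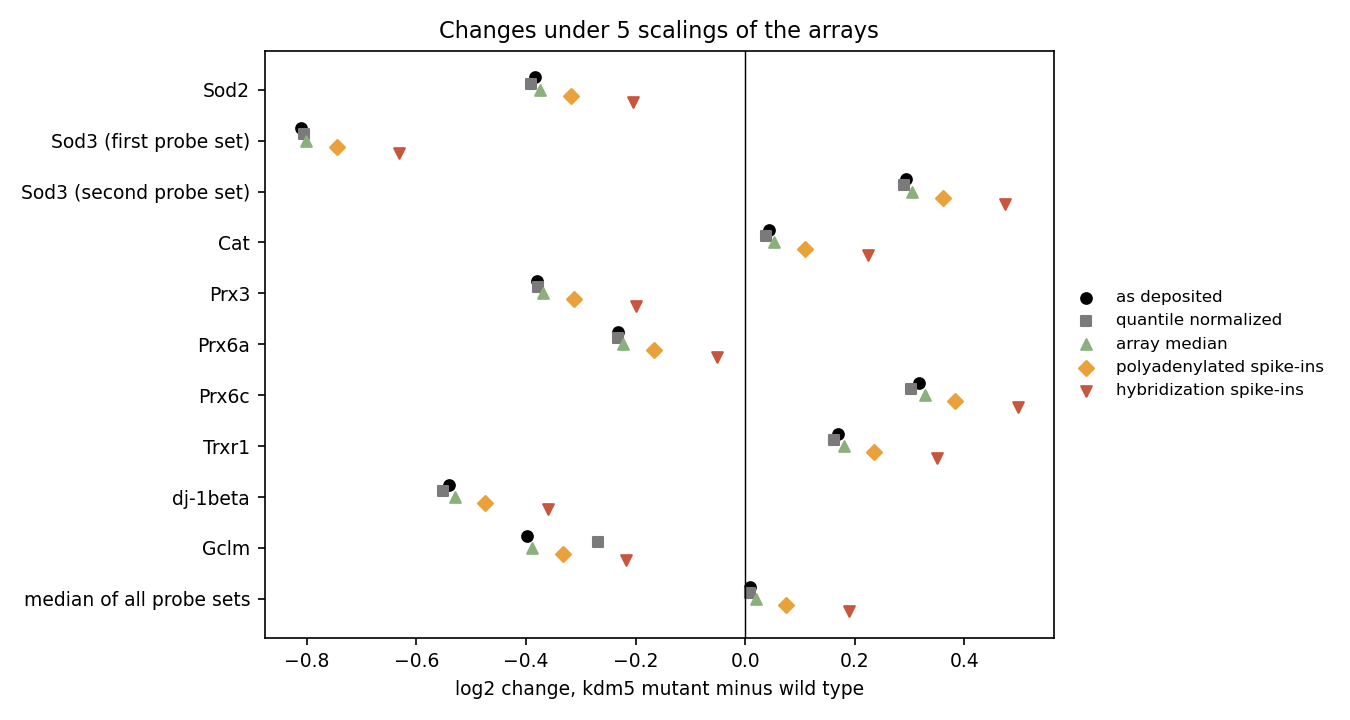
Log2 change (mutant minus wild type, horizontal axis) of each probe set, and the median of all probe sets, under 5 scalings of the arrays, shown by marker. The spike-in centrings shift everything to the right together, the hybridization spike-ins most, and no probe set crosses 0.

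Other genes of antioxidant defence were counted by role. Of 36 measured, from 45 listed, 7 fell and 3 rose, with a median change of -0.01. Over all named genes, with the brightest probe set of each, 21.7% passed in either direction. The 9 listed genes without values, among them the peroxiredoxins Prx2, Prx4 and Prx5, were not analysed here. By role, 1 of 3 superoxide, 1 of 5 peroxide and 1 of 9 thioredoxin genes rose and none of them fell. Of the glutathione and glutaredoxin genes 2 of 6 fell, of the regulators 3 of 7, and of the genes of NADPH supply and iron storage 2 of 6, with no rise among them. The balance of these counts depends on the scaling: with the hybridization spike-ins 14 of the 36 were called higher and 4 lower. The same centring called 6302 of all 18769 probe sets higher and 923 lower, so rises were common throughout. On the deposited scale, rises among the 36 numbered 1 without replicate 2 or replicate 3 of either genotype.

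The regulators held the largest fall of these lists. Sesn, the sestrin, a stress-induced inhibitor of TOR signalling, read 6.01, 6.31 and 5.70 in wild type and 5.14, 5.14 and 5.17 in the mutant, with a change of -0.86 ± 0.14 (SE, adjusted p = 0.00514, limma). The transcription factor gene foxo went from 8.21 ± 0.09 to 7.73 ± 0.07 (SD, n = 3 each), a change of -0.48 ± 0.07 (SE, adjusted p = 0.00234, limma). The small Maf gene maf-S went from 10.74 ± 0.02 to 10.45 ± 0.02 (adjusted p = 0.00422, limma), while its partner cnc did not pass, at 0.18 ± 0.06 (SE, adjusted p = 0.0899, limma). With the polyadenylated and hybridization spike-ins maf-S lost its call (adjusted p = 0.0669 and 0.24, limma), at -0.23 and -0.11.

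Both malic enzyme genes listed, whose products can make the NADPH that thioredoxin reductase consumes, fell as well. Men fell by 0.61 on the log2 scale and Men-b by 0.46 (SE 0.10 and 0.05, adjusted p = 0.00482 and 0.00107, limma), and the Men-b arrays spread little in wild type (SD 0.01, n = 3). The glutaredoxin gene Grx1 changed by -0.27 ± 0.05 and Srx, the sulfiredoxin that restores overoxidised peroxiredoxins, by -0.23 ± 0.05 (SE, adjusted p = 0.00998 and 0.0173, limma). Neither passed under the spike-in centrings, where Grx1 read -0.21 and -0.09 and Srx -0.16 and -0.05. Quantile normalization (-0.17, adjusted p = 0.052, limma) and a term for the replicate number (adjusted p = 0.0611, limma) also took the call from Srx. Srx was also not called when replicate 3 of the wild type, or 1 or 2 of the mutant, was left out (adjusted p from 0.0503 to 0.065, limma).

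The rises were those of Sodq, Pxd and CG3719. Sodq, a superoxide dismutase relative, went from 5.52 ± 0.09 to 5.98 ± 0.11 (SD, n = 3 each), a rise of 0.46 ± 0.07 (SE, adjusted p = 0.00543, limma). The peroxidase gene Pxd rose by 0.33 ± 0.09 (SE, adjusted p = 0.0454, limma) from a dim 4.10, and its other probe set did not pass (0.28, adjusted p = 0.377). CG3719 rose by 0.18 ± 0.05 (SE, adjusted p = 0.0442, limma). CG3719 lost its call without any 1 of the 6 arrays (adjusted p from 0.0634 to 0.142), and Pxd on leaving out replicate 2 or replicate 3 of either genotype (0.117 to 0.141), all by limma.

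**Figure D4:**
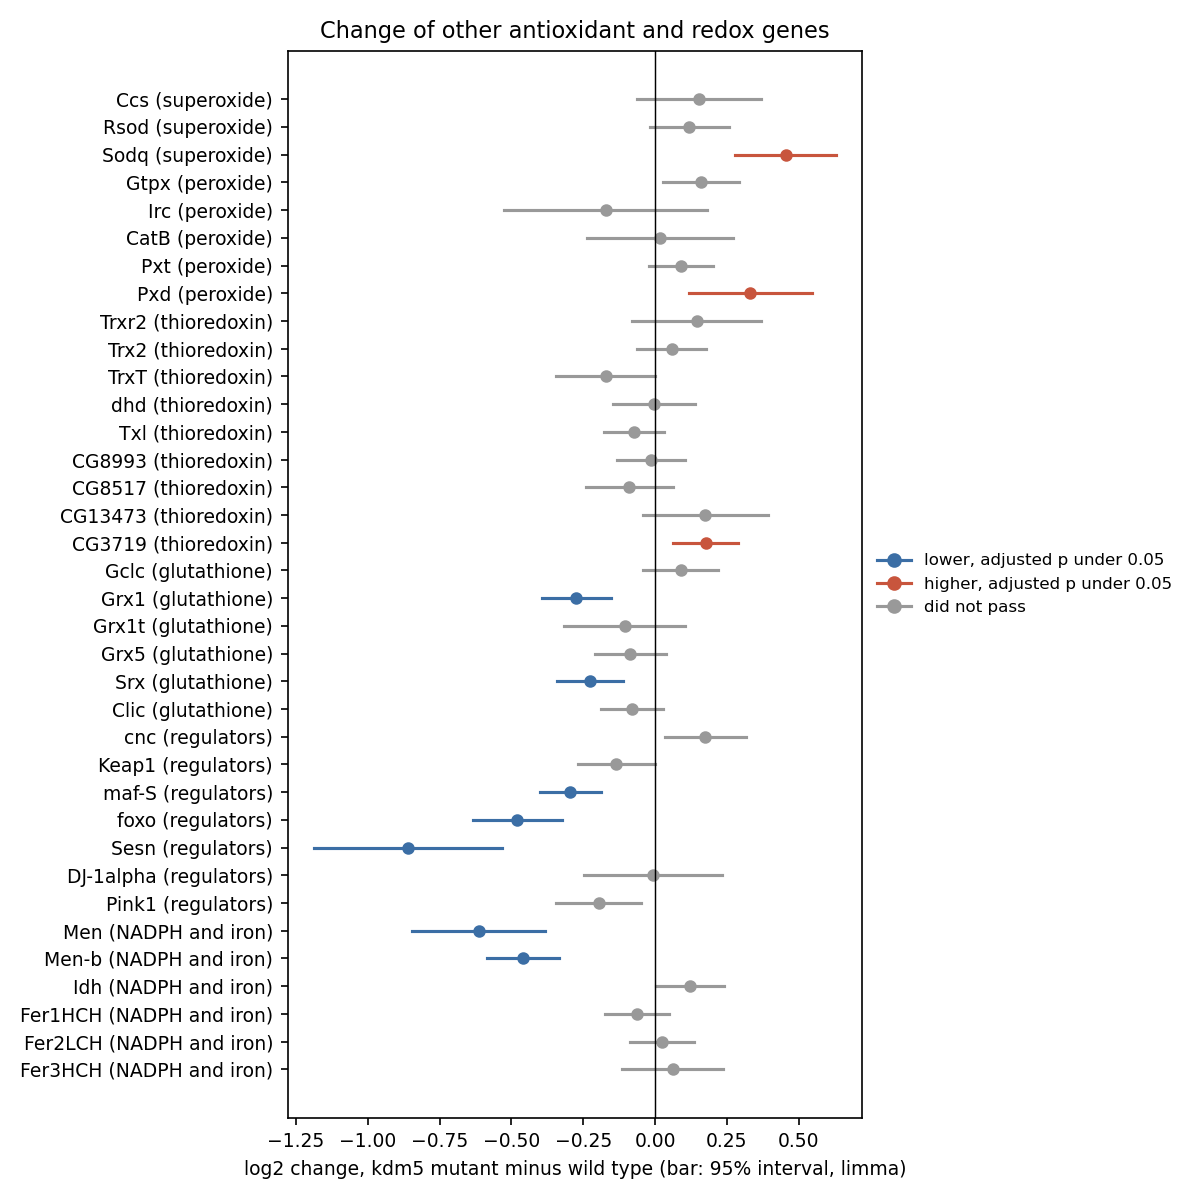
Log2 change (mutant minus wild type, horizontal axis) with its 95% interval from limma for the 36 further antioxidant and redox genes, with the role in parentheses; blue fell, red rose and grey did not pass. Sesn lies farthest left at -0.86 and Sodq farthest right at 0.46.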

How the data were processed

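The values are log2 signals per probe set that the authors deposited in the series matrix. Per the submitters' processing notes, the tools were GCOS, Affymetrix Expression Console, GCRMA and PLIER, with no versions, and their order is not stated there. Scanner files were not used here, so detection calls and scan batches were not at hand. Of 18952 probe sets 183 manufacturer controls were left out. Platform annotation gave 1 gene for 13647, several for 402 and none for 4720 of the rest, and symbols were updated for 13544 through the gene table of the RefSeq Release 6 assembly. The series names no build, so no coordinates are given.

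Genotype effects were tested per probe set with limma 3.58.1 in R 4.3.3 (lmFit and eBayes without trend), with no other term, two-sided, Benjamini-Hochberg over 18769 probe sets, threshold 0.05. Changes are mutant minus wild type. Differences within an array were tested with exact permutation in scipy 1.17.1. The fit was tested on simulated data. The members and lists were chosen with earlier results of these data known. Named were all members, Kdm5 and, of each list, up to 5 passing genes (3 for tissue markers); in lists, a gene is represented by its brightest probe set. nub, ap, en, dpp, Gclc, cnc, the unmeasured Prx genes and the second Pxd probe set were named after values were seen, and the test of Gclm against Gclc was added then. The labels do not pair the samples by replicate number. The correlations of same-numbered deviations were 0.00, 0.01 and -0.11. Samples of different number were not compared, so these values cannot settle whether a pairing exists. Alternatives were a replicate term, quantile normalization, 3 centrings, a level filter, array weights, a trended robust prior, averaged probe sets and each array left out.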

Additional observations from a re-analysis of the deposited data

How the results depend on the processing

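Under 15 alternatives, or 14 for a single Sod3 probe set, the changes of Kdm5, Sod2, the first Sod3 probe set and dj-1beta kept their direction and their call, with ranges of -5.98 to -5.50, -0.40 to -0.20, -0.84 to -0.63 and -0.57 to -0.36, and Cat was never called (0.00 to 0.22). With the replicate block the second Sod3 probe set (0.29) and Prx6a (-0.23) lost their calls, member rises numbered 1 and pathway rises 1, and it changed no other member call. The mean of both Sod3 probe sets changed by -0.26, and with probe sets averaged 1 member rise was left. Quantile normalization took the call from Prx6c (0.30), leaving 1 member rise. With the polyadenylated spike-ins Prx6a (-0.17) lost its call, lower calls over all probe sets numbered 1134, and 4 pathway genes fell. With the hybridization spike-ins 7225 probe sets were called, 6302 higher and 923 lower, 3 members fell and 3 rose, Prx3 (-0.20), Prx6a (-0.052) and Gclm (-0.22) lost their calls, Trxr1 (0.35) gained one, and 18 pathway genes were called, 14 higher and 4 lower. Trxr1 also passed among probe sets above the median level and with the trended robust prior (0.17 in both), where 6 pathway genes rose with the latter. Prx6c had no value among the probe sets above the median level. With each array left out in turn the member changes ran from 0.26 to 0.33 for the second Sod3 probe set, -0.25 to -0.21 for Prx6a, 0.26 to 0.39 for Prx6c and 0.14 to 0.22 for Trxr1. In the same fits 6 to 8 member probe sets were called, 5 to 6 lower and 0 to 2 higher, with 1 to 2 pathway rises and 1020 to 1281 rises over all probe sets. No detection call was at hand to set Prx6c against background. The cause of the lost and gained calls was not tested.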
